A study of Mus musculus with 16 samples.

Results

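On the array used here, long intergenic noncoding RNAs were carried as probes named by a genome interval. Of the 55681 probes other than controls, 16181 had a name made of a mouse chromosome, a start and an end in the mm9 build, and the suffix F or R, and these interval probes are described here. They had 4607 names on 3540 intervals, with 1 to 10 probes per name (median 3). The intervals were 62 to 7128487 bp long (median 7315.5 bp). Probes carried the suffix F in 8171 cases and R in 8010, and 1067 intervals had probes of both suffixes against 2473 with 1 suffix alone. The meaning of F and R is not given in the sources used here, and the letters are used as labels only. Probe sequences and gene names were not used here, and each transcript is called by its interval.

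Long intergenic noncoding RNAs are long transcripts from the stretches between protein-coding genes that are not translated into protein. Some of them act in the nucleus on chromatin and transcription or on splicing, some act in the cytoplasm, and for many no role is known. Their genes are often transcribed at low levels and in few tissues, and some lie beside or overlap genes read from the opposite strand.

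RNA was taken from the bladder body of C57BL/6 mice of both sexes, with 1 bladder on each 1-colour Agilent array and no treatment named in the labels. There were 4 arrays in each of 4 groups, mature (MAT) and aged (AGED) mice of each sex, with ages of 12 months for MAT and of 27 to 30 months for AGED. Every AGED and MAT direction here follows the age in the array labels, and it opposes the direction that the study prints for several of its leading genes. The study lists Chil3, Defb50, S100a9, F10 and Mmp3 as lower and AI593442, Kcnj5 and Gsg1l as higher in aged mice. By the labels, the former 5 had changes above 0 in both sexes (0.12 to 5.68 on the log2 scale in males). The latter 3 had changes below 0 (-2.96 to -0.98 in males). Adjusted p (limma) was under 0.05 for Chil3, Defb50, S100a9, Mmp3 and AI593442 in males, and for Chil3 and Mmp3 in females. F10 was near 0 (0.12 ± 0.26, SE, in males and 0.16 ± 0.26 in females) and so gives no direction. Tmem200c and D9Ertd115e, which the study also lists as higher, were not compared. Which direction is right was not settled, and if the age labels were exchanged, every rise and fall with age given here would turn. The question was how the interval transcripts differed between AGED and MAT bladders of each sex. A piece of bladder body holds urothelium, smooth muscle and other cells, and fewer cells of a type cannot be told apart from less RNA per cell. The female arrays were on 1 slide and the male arrays on another, and in both slides MAT arrays were in row 1 and AGED arrays in row 2, so sex cannot be told apart from slide, nor age from row.

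Each level is the log2 of a probe's background-subtracted signal minus the 75th percentile of its array, so that 0 is the signal of a probe at that percentile and a difference of 1 is 2-fold. Signal also depends on the probe's own sequence, so a higher level of one probe than of another says nothing of the amounts of their transcripts. A probe entered the tests when 4 or more of the 16 arrays had it marked as well above background by the scanner software. This left 8301 interval probes (51.3%), of 3418 names on 2726 intervals. Of the other 39500 probes, 72.6% were kept, and the tests ran on all 36972 kept probes at once. Well above background on no array were 4755 interval probes, on 1 to 3 arrays 3125, and on all 16 arrays 4322. Kept were 54.0% of the R probes and 48.6% of the F probes. By length, 47.2% were kept among the shortest of 4 equal classes of intervals, 56.4% and 52.4% in the next ones and 49.0% in the longest. By chromosome the share ran from 42.8% on chromosome 9 to 59.2% on chromosome 17, with 51.5% on chromosome X.

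At the threshold, 296 interval probes were well above background on exactly 4 arrays and 419 on exactly 3. The kept probe with the lowest mean level of those on 4 arrays was A_30_P01019447 of chr17:15226181-15250333_R. Its level was -8.57, -8.62, -8.39 and -4.22 on the MAT female arrays and -7.18, -3.47, -7.73 and -8.26 on the AGED male arrays. Most of its arrays were thus near -8, with single arrays near -4. Just outside the threshold, the probe with the highest mean level of those on 3 arrays was A_30_P01021323 of chr4:145000941-145148666_F, at -5.01, -4.28, -5.91 and -4.81 on the MAT male arrays.

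At the other end, the 5 interval probes with the highest mean signal were named chr19:5801802-5802597_R, chr11:22681800-22707775_R, chr17:17481706-17482457_R, chr7:108209996-108216032_R and chr14:78924115-78938125_F. All 5 were well above background on 16 of 16 arrays, and none was called for age in either sex. For the first, A_30_P01031754, levels were 7.48, 7.57, 7.54 and 7.8 on MAT male and 7.81, 6.91, 6.89 and 7.61 on AGED male arrays. They were 7.37, 7.26, 7.33 and 7.34 on MAT female and 7.0, 7.82, 6.99 and 7.88 on AGED female arrays. In each sex the AGED arrays were more spread than the MAT arrays, above and below them, and the age change was -0.30 ± 0.24 (SE), adjusted p = 0.556 in males and 0.10 ± 0.24 (SE), adjusted p = 0.944 in females (limma).

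The share of interval probes well above background was lower on AGED than on MAT arrays. It was 51.2%, 46.4%, 46.7% and 42.9% on the MAT male arrays and 31.6%, 41.4%, 41.1% and 44.4% on the AGED male arrays. It was 52.5%, 54.2%, 49.4% and 48.8% on the MAT female arrays and 44.6%, 41.3%, 46.4% and 45.1% on the AGED female arrays. The groups overlapped in males through 1 AGED array, and did not overlap in females. The AGED minus MAT difference was -7.22 percentage points in males (two-sided exact permutation test, p = 0.0571) and -6.84 in females (p = 0.0286 in the exact permutation test, the smallest that 4 arrays against 4 allow). For the other probes it was -4.21 points in males (exact permutation p = 0.0571) and -3.52 in females (exact permutation p = 0.0286). The dimmest array was AGED male replicate 1. Its 75th percentile was at log2 9.39, and those of its group's other arrays were between 10.1 and 10.2. The share counts calls of the scanner software, and the part of array brightness in it was not tested.

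**Figure D1:**
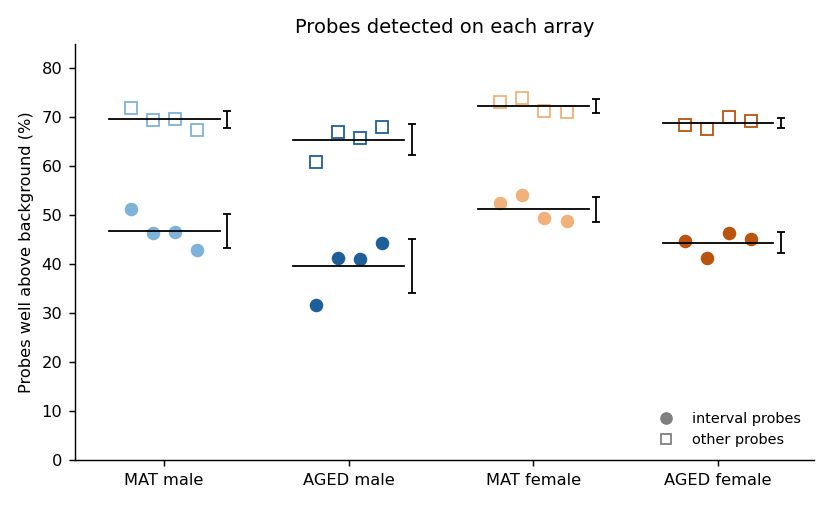
Percentage of probes well above background on each of the 16 arrays (y axis) in the 4 groups (x axis), for interval probes (filled circles) and other probes (open squares); lines are group means and bars at the right of each group are 1 SD. Interval probes ran from 31.6% to 54.2% and lay below the other probes on every array, and AGED minus MAT was -7.22 points in males and -6.84 in females for interval probes.

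Age changes of probes that carried the same name were partly alike, and those of F and R probes of an interval were nearly unrelated. Among 2152 names with at least 2 kept probes, the changes of the 2 probes with the highest signal had a Pearson correlation of 0.37 in males and 0.40 in females. These pairs share an interval, a suffix and their arrays. Among the 692 intervals with kept probes of both suffixes, the mean changes of F and R probes had a correlation of 0.07 in males and 0.06 in females, and these pairs share their arrays and interval. Of the other intervals with both suffixes, 143 had kept probes on F alone, 155 on R alone and 77 on neither. The median range of age changes within a name was 0.49 in males and 0.32 in females, and no interval had a called F and a called R probe for age. The number of kept probes of a name that moved is therefore given with each result.

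**Figure D2:**
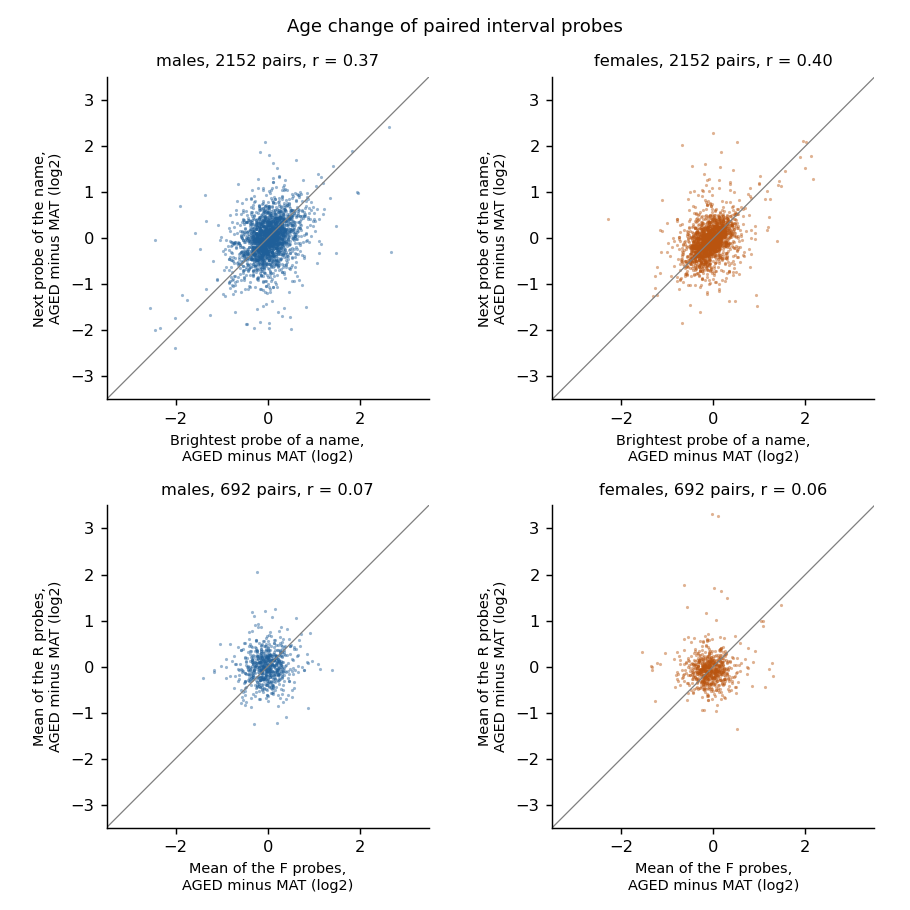
AGED minus MAT change (log2) of paired interval probes in males (left) and females (right); the upper plots set the brightest kept probe of a name (x axis) against the next one (y axis) for 2152 names, and the lower plots set the mean of F probes (x axis) against the mean of R probes (y axis) for 692 intervals. The grey line marks equal change; the upper clouds lean along it (r = 0.37 and 0.40) and the lower ones do not (r = 0.07 and 0.06).

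In males, 24 interval probes of 18 names rose with age and 23 probes of 22 names fell, of 8301 tested. A probe was called when its adjusted p was under 0.05 (limma over all 36972 kept probes, Benjamini-Hochberg adjustment) and its change at least 2-fold. Called higher were 0.289% of the interval probes, beside 0.246% of all probes tested, and called lower were 0.277%, beside 0.557%. The share called higher was thus near the background and the share called lower below it. The median change was 0.00 over the interval probes and 0.00 over the other probes. The rises were on 7 chromosomes, 7 of them F and 17 R probes, and the falls on 12, with 7 F and 16 R probes. The compared arrays were of 1 slide in this fit, and female arrays entered it through the shared estimate of the spread. When males were fitted alone, with the spread from male arrays alone, no interval probe reached an adjusted p under 0.05. In that fit 82 rose and 114 fell at least 2-fold at an unadjusted p under 0.05 (limma). In the fit of all arrays these unadjusted counts were 104 and 132, beside 410 and 609 of all 36972 probes, and by the methods' t-test 55 and 73. Without MAT male replicate 2 or 3 there were 15 rises, of which 13 and 11 are among the 24, without MAT male replicate 1 or 3 or MAT female replicate 1 there were 13 falls, and without AGED male replicate 2 there were 61 falls.

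Among the rises in males, the chr3:57416618-57429679_R transcript had all 3 probes of its name called. For its probe A_30_P01028362, levels were -3.71, -4.2, -3.96 and -3.65 on MAT male arrays and -3.0, -2.5, -3.05 and -2.43 on AGED male arrays. They were -3.41, -3.4, -3.8 and -3.82 on MAT female and -3.95, -3.91, -3.79 and -3.95 on AGED female arrays. The 4 AGED male arrays stood above all others, and the female groups lay with the MAT males. The change in males was 1.13 ± 0.17 (SE), adjusted p = 0.00498, a 2.19-fold rise, and in females -0.29 ± 0.17 (SE), adjusted p = 0.613. The other probes of the name, A_30_P01018808 and A_30_P01030198, rose 2.6-fold (adjusted p = 0.00403) and 2.08-fold (adjusted p = 0.0172) in males, with female changes of -0.22 and -0.01 on the log2 scale.

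In 5 further names outside the chromosome 1 stretch described below, a single probe was called with a change of at least 1.11, no overlap between groups and all 4 AGED male arrays well above background. For chr12:20240893-20435318_R, probe A_30_P01028640 had levels of -3.16, -3.22, -3.72 and -2.91 on MAT male and -1.77, -1.99, -2.21 and -2.3 on AGED male arrays. The groups did not overlap, and the change was 1.19 ± 0.20 (SE), adjusted p = 0.00913. Its name had 3 kept probes, whose male changes ran from -0.53 to 1.19. For chr13:28947034-28949166_R, probe A_30_P01031644 had levels of 0.05, -0.15, 0.25 and 0.91 on MAT male and 1.06, 1.0, 1.52 and 2.53 on AGED male arrays. The lowest AGED array was just above the highest MAT array, and the change was 1.26 ± 0.29 (SE), adjusted p = 0.0451. The 3 probes of that name had male changes from 0.25 to 1.26, all above 0.

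For chr5:52461266-52541416_F, probe A_30_P01018869 had levels of -0.52, -1.65, -1.07 and -1.06 on MAT male and 0.03, -0.17, -0.04 and 0.33 on AGED male arrays. The AGED male arrays lay above every MAT array, and the change was 1.11 ± 0.25 (SE), adjusted p = 0.0371. Of the 3 kept probes of that name, the lowest male change was -0.06, and the 6 R probes of the same interval had male changes from -0.23 to 0.87, none called. For chr5:147538052-147546377_R, probe A_30_P01032672 rose 2.63-fold (adjusted p = 0.0424), with AGED male levels of -2.28, -3.6, -4.26 and -3.86 against -5.11, -4.58, -5.33 and -4.58 on MAT male arrays. The highest of its AGED values was on the dimmest array, and its 4 kept probes had male changes from 0.09 to 1.40. For chr1:59775022-59780348_R, probe A_30_P01019680 rose 2.32-fold (adjusted p = 0.0384), from -4.83, -4.74, -4.94 and -4.61 to -2.99, -4.5, -3.49 and -3.28. It was the sole kept probe of its name, and the 5 F probes of that interval had male changes from -0.54 to 0.43.

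**Figure D3:**
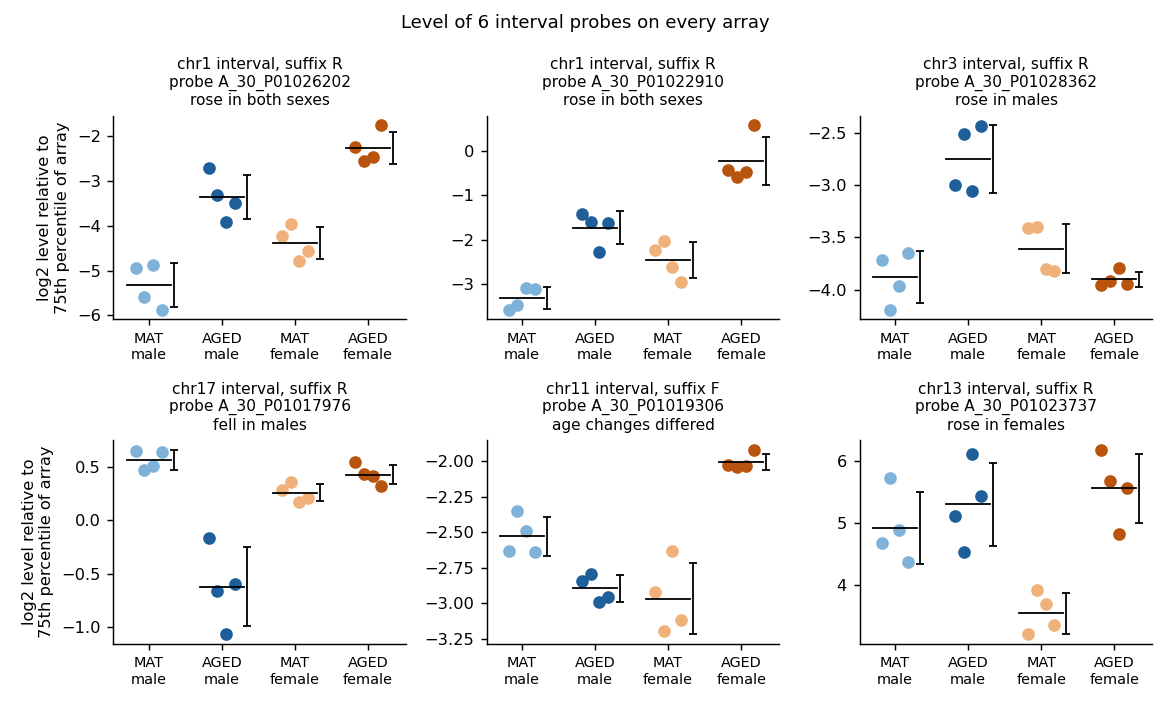
Log2 level relative to the 75th percentile of the array (y axis) of 6 interval probes on each array of the 4 groups (x axis); points are arrays, lines group means and bars 1 SD (n = 4), and each plot has its own y range. Both chromosome 1 probes were higher in AGED than MAT arrays of both sexes, the chromosome 3 probe was higher in AGED males (-3.05 to -2.43), the chromosome 17 probe lower in AGED males (-1.07 to -0.16), the chromosome 11 probe higher in AGED females (-2.04 to -1.92) and the chromosome 13 probe lower in MAT females (3.21 to 3.93) than in the other groups.

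Split into 4 equal bands of mean level of the kept interval probes, the falls in males were 5, 9, 6 and 3 from the dimmest band to the brightest. Of the 23 probes, 11 had no AGED male array well above background, so that the AGED level is a bound and the fall is written as a lower limit, the MAT mean over the dimmest signal that could be measured. Of the 23, 5 were well above background on all 16 arrays, beside 4322 of the 8301 kept interval probes. A probe that fell below detection cannot be among those. The detection of interval probes was also lower on AGED male arrays (-7.22 percentage points), and its part in these falls was not tested.

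The fall with the smallest adjusted p was a bright one, of chr17:22422837-22451777_R. Probe A_30_P01017976 had levels of 0.65, 0.47, 0.51 and 0.64 on MAT male and -0.16, -0.66, -1.07 and -0.59 on AGED male arrays. It had 0.29, 0.36, 0.18 and 0.21 on MAT female and 0.55, 0.43, 0.42 and 0.33 on AGED female arrays. The 4 AGED male arrays were below 0 and the other 12 above it. The change in males was -1.19 ± 0.15 (SE), adjusted p = 0.00181, a 2.28-fold fall, and in females 0.17 ± 0.15 (SE), adjusted p = 0.775. The name had 3 kept probes with male changes from -1.19 to -0.12, and 1 of them was called.

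On chromosome 7, probes of 2 overlapping R names fell together in males. For chr7:69088784-69089906_R, A_30_P01017899 had levels of -1.5, -2.4, -2.07 and -1.39 on MAT male and -3.4, -2.69, -3.49 and -3.15 on AGED male arrays, with a change of -1.34 ± 0.24 (SE), adjusted p = 0.012. The 3 probes of that name had male changes from -1.34 to -0.01. For chr7:69075022-69127242_R, which spans that interval, A_30_P01027593 was at -4.17, -4.87, -4.32 and -3.85 on MAT male arrays. On the AGED male arrays it measured -5.72, -5.01, -6.46 and -6.39, never well above background. It was at least 2.13-fold lower in AGED males (adjusted p = 0.024), and A_30_P01027305 of the same name at least 1.78-fold (adjusted p = 0.0303). These 2 calls were lost with a floor on low signals and held in 19 of 30 and 21 of 30 alternatives. All 3 kept probes of the longer name had male changes below 0, from -1.76 to -0.71. Their female changes ran from -0.38 to -0.21, and none was called.

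For chr13:58474388-58487288_F, probe A_30_P01027355 had levels of -4.41, -4.32, -4.24 and -4.02 on MAT male arrays and of -5.74, -6.49, -5.3 and -5.54 on AGED male arrays, none of them well above background. It was at least 2.12-fold lower in AGED males (adjusted p = 0.00401). The 4 kept probes of that name had male changes from -1.52 to 0.36, and the 4 R probes of the interval from -0.24 to 0.28, with no other probe of the interval called. For chr7:66562376-66579519_R, probe A_30_P01032124 went from -4.53, -3.63, -3.59 and -4.9 on MAT male to -5.89, -6.28, -6.12 and -5.75 on AGED male arrays, at least 2.48-fold lower (adjusted p = 0.00758). It was 1 of 5 kept probes of its name, with male changes up to 0.44, and the 10 F probes of that interval had male changes from -0.12 to 0.45.

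For chr8:67550064-67560987_R, the sole probe A_30_P01033125 had levels of -3.98, -4.43, -3.76 and -4.32 on MAT male and -6.47, -5.38, -5.28 and -8.07 on AGED male arrays. It was well above background on 1 AGED male array. The fitted change was -2.17 ± 0.50 (SE), adjusted p = 0.0426, and the call was lost with a floor on low signals. For chr16:11024315-11055740_F, probe A_30_P01023356 had levels of -2.6, -2.27, -2.59 and -2.6 on MAT male and -4.36, -2.66, -4.9 and -4.14 on AGED male arrays. It was well above background on 3 AGED male arrays. AGED male replicate 2 lay just below the MAT arrays and the other 3 far below, a 2.83-fold fall (adjusted p = 0.0351). For chr15:61984389-62102500_R, A_30_P01021541 was 1 of 8 kept probes of its name and fell 2.93-fold (adjusted p = 0.0431), from -4.34, -4.88, -4.87 and -4.9 to -6.38, -6.87, -7.03 and -4.9. The highest AGED array equalled the lowest MAT array to 2 decimals, and the male changes of the 8 probes ran from -1.55 to 0.66. A_30_P01021541 was well above background on 1 AGED male array, and its call was lost with a floor on low signals.

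The remaining falls with groups that did not overlap, of the 8 largest, were of probes with no AGED male array well above background. A_30_P01018133 of chr1:71939741-71947891_F, at -5.29, -4.31, -5.1 and -4.98 on MAT male arrays, was at least 1.53-fold lower (adjusted p = 0.0301), and the other 2 kept probes of its name had changes up to 0.70. A_30_P01020847 of chr12:70213282-70225157_R, at -5.21, -4.9, -5.33 and -4.82 on MAT male arrays, was at least 1.38-fold lower (adjusted p = 0.0227), 1 of 5 kept probes with changes up to 0.27. Both calls were lost with a floor on low signals and held in 20 of 31 and 21 of 30 alternatives. The largest fitted male changes were of 2 probes of chr5:14943275-14944205_F, named after their values were seen, with 3 of 4 AGED male arrays well above background for each. A_30_P01019442 was at least 3.79-fold higher in AGED males (adjusted p = 0.0194), with no MAT male array well above background, and A_30_P01029005 had a change of 2.64 ± 0.59 (SE, adjusted p = 0.0368) with groups that overlapped. Outside chromosome 1, the male calls above that held whichever 1 array was left out were those of the chr3:57416618-57429679_R probes A_30_P01028362 and A_30_P01018808, chr12:20240893-20435318_R and, among the falls, chr17:22422837-22451777_R, chr13:58474388-58487288_F, chr7:66562376-66579519_R and chr7:69088784-69089906_R. Over all alternatives, these kept the call in 26 of 30 settings at the least for the rises and 26 of 30 for the falls, while the call of chr13:28947034-28949166_R held in 13 of 30, of chr5:147538052-147546377_R in 14 of 30, of chr8:67550064-67560987_R in 14 of 31 and of chr15:61984389-62102500_R in 10 of 30. Over the 20 names with a fall in males and at least 2 kept probes, 1 had at least 2 called probes, and in 8 all probes were on the same side of 0. Over the 15 such names with a rise, 4 had at least 2 called probes, and in 11 all were on the same side.

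In females, 13 interval probes of 9 names rose with age and none fell (limma, adjusted p under 0.05 and at least 2-fold). The rises were 0.157% of the interval probes, beside 0.154% of all probes tested. The falls were none, beside 0.00811% of all probes. At an unadjusted p under 0.05, limma had 84 rises and 63 falls of at least 2-fold and the methods' t-test 67 and 44. Over all 36972 probes, limma had 437 and 230. Of the 13 rises, 11 were R probes and 2 F probes, and 10 were well above background on all 16 arrays. With females fitted alone, and the spread thus from female arrays alone, 18 rose and 7 fell. Without MAT female replicate 4, 1 interval probe rose, and without AGED male replicate 1, 29 did, with 7 falls.

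Outside chromosome 1, the largest rise named in females was of chr13:21856097-21859200_R. The probe A_30_P01023737, the sole one of the name, was bright, with levels of 3.21, 3.93, 3.71 and 3.36 on MAT female and 6.18, 5.67, 4.82 and 5.56 on AGED female arrays. It was at 4.68, 5.72, 4.9 and 4.37 on MAT male and 5.12, 4.53, 6.11 and 5.43 on AGED male arrays. The MAT female arrays were the 4 lowest of the 16, and the change was 2.01 ± 0.36 (SE), adjusted p = 0.0416 in females, a 4.01-fold rise, and 0.38 ± 0.36 (SE), adjusted p = 0.623 in males. For chr7:111526943-111545093_R, the sole probe A_30_P01024661 had levels of -0.92, -0.85, -0.51 and -0.93 on MAT female and 0.1, 0.22, 0.51 and 0.64 on AGED female arrays. The groups did not overlap, the change was 1.17 ± 0.20 (SE), adjusted p = 0.0371, and the 3 kept F probes of that interval had female changes from -0.20 to -0.11.

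For chr11:119254413-119296960_F, probe A_30_P01021136 had levels of -3.04, -3.26, -2.74 and -3.26 on MAT female and -2.2, -2.03, -1.99 and -2.06 on AGED female arrays, a rise of 1.00 ± 0.17 (SE), adjusted p = 0.0365. All 3 kept probes of the name were above 0 in females, from 0.74 to 1.00, and below 0 in males, from -0.37 to -0.11. The remaining rise in females was of chr14:106068373-106146613_R, A_30_P01033390, named here after its values were seen. It was well above background on 1 MAT female and 3 AGED female arrays (change 1.77, adjusted p = 0.0439). The calls of A_30_P01023737, A_30_P01024661 and A_30_P01021136 held in 18 of 31, 16 of 31 and 13 of 30 alternatives and were lost without any of several single arrays.

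Most interval probes in females lay slightly lower with age. The median change was -0.08 over the 8301 interval probes and 0.01 over the other kept probes, and 39.7% of the interval probes were above 0 against 52.2% of the others. The 4 AGED female arrays lay below the 4 MAT female arrays, with no overlap, for 608 interval probes (7.32%), beside 5.67% of all probes, and above them for 216 (2.60%), beside 4.9% of all. In males 268 (3.23%) lay lower and 268 (3.23%) higher, beside 3.94% and 3.79%. When the interval probes were split into 4 equal bands of mean level, the female median change was -0.11 in the dimmest band and -0.08, -0.07 and -0.06 in the others. Other probes in the same bands had -0.09, -0.03, -0.02 and 0.03. The median of the interval probes was at -0.09 after quantile normalization and -0.10 after median scaling, but at -0.02 after another background correction (normexp), at -0.01 with a floor on low signals and at 0.07 when probes were not filtered on background. AGED female arrays also had fewer interval probes above background, and the part of this in the shift was not tested.

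Interval probes that rose in both sexes lay on chromosome 1. Both sexes called 5 interval probes of 3 names, beside 0.0298% of all probes tested, and all 5 lay between chr1:85117750 and chr1:85331475. Around them, from chr1:84961943 to chr1:85331475, 9 probes of 5 names rose in females and 6 probes of 3 names in males. The protein-coding genes near these intervals were not looked up, as the annotation at hand is of another build.

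For chr1:85117750-85129200_R, probe A_30_P01026202 had levels of -4.95, -5.58, -4.87 and -5.88 on MAT male and -2.71, -3.32, -3.91 and -3.48 on AGED male arrays. It had -4.24, -3.95, -4.79 and -4.55 on MAT female and -2.24, -2.57, -2.46 and -1.76 on AGED female arrays. In each sex the 4 AGED arrays were above the 4 MAT arrays. The rise was 1.96 ± 0.29 (SE), adjusted p = 0.00403 in males and 2.13 ± 0.29 (SE), adjusted p = 0.0113 in females, 3.9-fold and 4.37-fold. Of the 5 probes of this name, all 5 had changes above 0 in both sexes, from 0.68 to 1.96 in males, where 1 was called, and from 0.77 to 2.13 in females, where 3 were called.

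The F probes of the same interval had no call for age. All 5 were kept, and their changes ran from 0.53 to 0.73 in males and from 0.16 to 0.47 in females. The difference between F and R probes was not tested.

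For chr1:85304494-85305390_R, A_30_P01022910 had levels of -3.59, -3.46, -3.09 and -3.11 on MAT male and -1.42, -1.59, -2.28 and -1.62 on AGED male arrays. It had -2.24, -2.02, -2.62 and -2.94 on MAT female and -0.43, -0.59, -0.48 and 0.58 on AGED female arrays, of which AGED female replicate 4 was the highest by about 1. The groups did not overlap, and the rise was 1.58 ± 0.27 (SE), adjusted p = 0.0101 in males and 2.23 ± 0.27 (SE), adjusted p = 0.00911 in females, 3-fold and 4.68-fold. The other 2 probes of the name, A_30_P01030738 and A_30_P01024650, rose 3.74-fold and 3.55-fold in males. In females the first rose 4.32-fold (adjusted p = 0.0365) and the second was 3.89-fold higher with an adjusted p of 0.0586.

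The interval chr1:85300475-85331475_R spans that one. Its probe A_30_P01030539 had levels of -3.86, -4.07, -4.31 and -4.33 on MAT male and -2.38, -2.96, -3.43 and -3.19 on AGED male arrays, and of -4.18, -3.98, -4.45 and -4.48 on MAT female and -2.93, -2.82, -2.67 and -2.43 on AGED female arrays. All AGED arrays were above all MAT arrays. It rose 2.23-fold in males (adjusted p = 0.0124) and 2.94-fold in females (adjusted p = 0.0109), and A_30_P01017544 of the same name 2.5-fold (adjusted p = 0.00292) and 2.74-fold (adjusted p = 0.00911). The third kept probe had changes of 0.89 and 0.43 and was not called. The names overlap, so their probes are not independent of each other.

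The other names of the stretch with a probe called for age were called in females and not in males. A_30_P01021827 of chr1:84961943-84962737_F had levels of -3.86, -3.95, -3.95 and -4.67 on MAT female and -2.43, -2.26, -1.91 and -1.29 on AGED female arrays, a rise of 2.14 ± 0.40 (SE), adjusted p = 0.0439. In males it went from -4.84, -4.64, -5.08 and -5.06 to -1.88, -3.37, -4.15 and -3.89, 1.58 ± 0.40 (SE), adjusted p = 0.0601. A_30_P01019184 of chr1:85036677-85038530_R had levels of -0.95, -1.26, -1.31 and -1.78 on MAT female and -0.13, 0.81, 0.58 and 1.02 on AGED female arrays, a rise of 1.89 ± 0.31 (SE), adjusted p = 0.0286, and a male change of 0.93 ± 0.31 (SE), adjusted p = 0.149. The difference of the age change between the sexes did not pass the test for either probe (adjusted p = 0.809 and 0.502). At AGED age alone, both were lower in males than in females, with differences of -1.35 ± 0.40 (SE), adjusted p = 0.0464 and -1.38 ± 0.31 (SE), adjusted p = 0.0141, a call that held in 7 of 24 and 24 of 24 alternatives. Over the stretch, 8 probes of 6 names were called lower in AGED males than in AGED females, and sex cannot be told apart from slide.

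Names of the stretch without a call for age differed in their changes. The 2 kept R probes of chr1:84947500-85045150_R had changes from -0.55 to -0.11 in males and from -0.46 to -0.22 in females. The 3 kept probes of chr1:85156338-85167730_R ran from -0.02 to 0.70 in males and from 0.01 to 0.61 in females. The 2 kept probes of chr1:85310067-85323941_R had larger changes, from 1.00 to 1.94 in males and from 2.02 to 2.09 in females. For both, the AGED female arrays lay above the MAT female arrays (adjusted p = 0.214 and 0.0697, limma), and the male groups overlapped. None of these probes was called for age. The name chr1:85310067-85323941_R was among the 6 names with a probe called lower in AGED males than in AGED females.

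**Figure D4:**
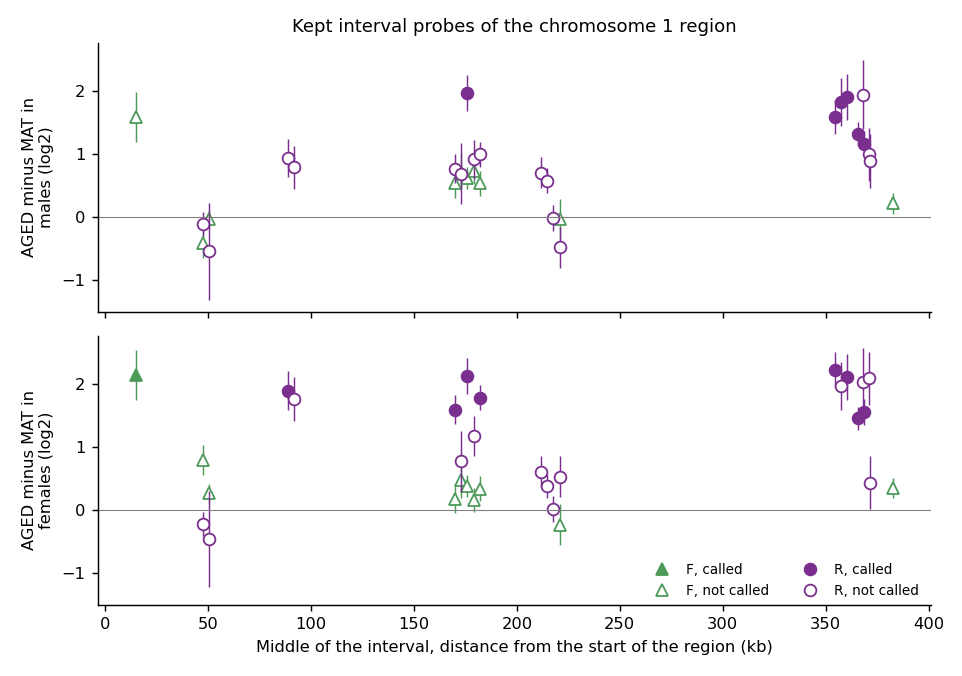
AGED minus MAT change with its SE (log2, y axis) of every kept interval probe of the chromosome 1 stretch in males (upper) and females (lower), against the middle of its interval in kb from the start of the stretch (x axis; probes of 1 name are set apart sideways); circles are R and triangles F probes, filled where called. R probes reached 1.96 in males and 2.23 in females, the F probe called in females was at 2.14 there, and the 5 F probes in the middle were between 0.16 and 0.73.

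A_30_P01026202 kept its call in 29 of 31 alternatives in males and in 28 of 31 in females, and A_30_P01017544 in 27 of 30 and 26 of 30. The female calls of A_30_P01021827, A_30_P01030738 and A_30_P01019184 held in 12 of 31, 16 of 30 and 20 of 31 alternatives, and each was lost without any of several single arrays. The count called in both sexes was 0 without MAT female replicate 4, and 4 to 8 without any other single array. It was 0 with each sex fitted alone, where no male probe was called.

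Marker gene lists were counted beside these rises in each sex, and the difference between the sexes was not tested for them. Of 10 interferon response genes, 5 rose in females (median change 2.35), among them Rtp4 (2.28 ± 0.40, SE), with summed levels of 4.14 to 4.89 on MAT and 6.18 to 6.82 on AGED female arrays. None was called in males, where the median change was -0.32 and 1 of 10 was above 0. Of 8 macrophage genes 1 rose in each sex, Vsig4 (2.20 ± 0.36 in males, 2.25 ± 0.36 in females), with summed levels of 6.19 to 6.47 on MAT and 6.37 to 7.37 on AGED male arrays and 6.11 to 6.30 and 5.97 to 6.82 on female ones. Of 6 neutrophil genes, 2 rose in males (S100a9 and S100a8) and none in females, with summed levels of 6.33 to 6.49 on MAT and 6.33 to 6.63 on AGED male arrays. A summed level is the log2 of a list's summed signals, so bright genes set most of it. Here Csf3r was far the brightest (mean level 6.30, male change -0.04 ± 0.13, SE), beside mean levels of -0.83 for S100a9 and -2.68 for S100a8. The neutrophil sum thus says little of the 2 genes that rose. Of 9 T cell genes all had male changes above 0 without a call, with summed levels of 1.89 to 2.39 on MAT and 1.97 to 4.50 on AGED male arrays, and none had a female change above 0. Their part in the interval rises was not tested.

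Other cell types' lists had no called gene in either sex. These were the urothelium (8 genes), smooth muscle (8), T cell (9), B and plasma cell (9), adipocyte (8), peripheral nerve (8) and proliferation (8) lists, with median male changes from -0.44 for proliferation to 0.78 for T cells and median female changes from -0.95 for adipocytes to 1.17 for proliferation. Several of these lists lay on 1 side of 0, as the T cell list did. Above 0 were 8 of 9 B and plasma cell genes in males and 0 in females. Of 8 proliferation genes, 3 were above 0 in males and 8 in females. Of 8 peripheral nerve genes 0 were above 0 in either sex, and of 8 adipocyte genes 1 in males and 0 in females. Urothelium (3 and 6 of 8) and smooth muscle (5 and 4 of 8) genes were on both sides. Urothelial Upk1a and smooth muscle Acta2 were well above background on all 16 arrays. Of 7 male accessory gland genes, 1 was tested, Defb50, and it rose in males (3.32 ± 0.49, SE). In females its change was 1.81 ± 0.49 (SE) without a call (adjusted p = 0.215, limma). Its female levels were -6.77 to -5.85 on MAT and -4.62 to -4.37 on AGED arrays. Of 4 sex-linked genes tested, none was called for age.

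For comparison, 34 genes of a list of known long noncoding RNAs had probes outside the interval set, among them Snrpn, which is protein-coding. Of the 34, 30 were tested and none was called in either sex by limma. Of all probes tested, 0.246% were called higher and 0.557% lower in males, and 0.154% and 0.00811% in females. None of 30 is near such shares. Median changes of the 30 were 0.04 in males and 0.04 in females. Among them was Neat1, a scaffold of nuclear paraspeckles, with a change of 0.73 ± 0.19 (SE) in males (adjusted p = 0.0741) and 0.09 ± 0.19 in females. Malat1, a transcript of nuclear speckles, had -0.33 ± 0.36 and -0.40 ± 0.36. Over all 230 tested genes of the RefSeq class lncRNA, a comparison set chosen after the values were seen, 1 rose and 1 fell in males and none was called in females.

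Across the kept interval probes, age changes in males and females were weakly related. Pearson's correlation was 0.18 and Spearman's 0.18 over 8301 probes, which share arrays and, within a name, an interval, and 4794 had the same sign. Of the 47 probes called in males, 27 had the same sign in females, and of the 13 called in females, 11 had the same sign in males.

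**Figure D5:**
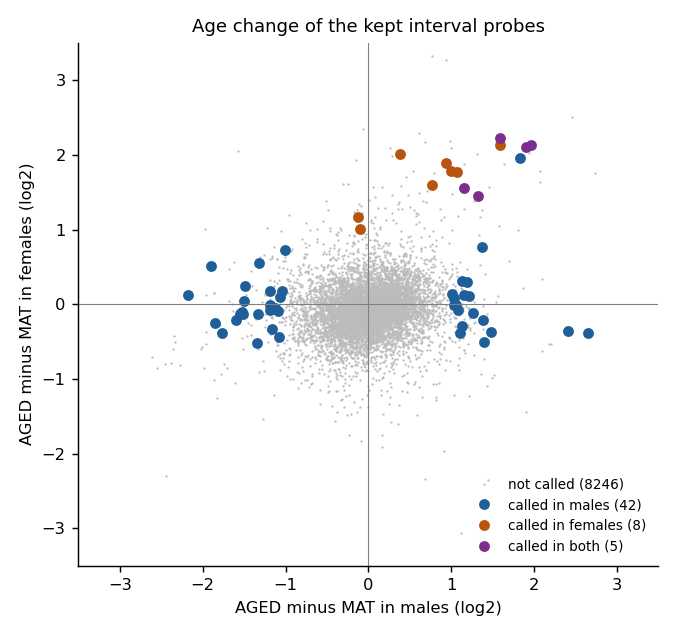
AGED minus MAT change (log2) of the 8301 kept interval probes in males (x axis) and females (y axis), coloured by the sex in which a probe was called. The 5 probes called in both sexes are at the upper right, and the 42 called in males alone lie on both sides of 0 on the female axis.

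The difference between the sexes in the age change was called for 3 interval probes (limma, adjusted p under 0.05, no fold limit), 1 higher in males (0.0120%, beside 0.0108% of all probes) and 2 lower (0.0241%, beside 0.0866%). At an unadjusted p under 0.05 (limma), 507 of the 8301 interval probes were higher and 280 lower, beside 1687 and 1868 of all 36972 probes. The chr3:57416618-57429679_R probe A_30_P01028362 rose in males and not in females, with a difference of 1.43 ± 0.25 (SE), adjusted p = 0.0447. The chr17:22422837-22451777_R probe A_30_P01017976 fell in males and not in females, with a difference of -1.36 ± 0.22 (SE), adjusted p = 0.0323. Values on every array of both were given above.

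The third was chr11:119254413-119296960_F. Probe A_30_P01019306 had levels of -2.63, -2.35, -2.49 and -2.64 on MAT male and -2.84, -2.79, -2.99 and -2.96 on AGED male arrays. It had -2.93, -3.2, -2.63 and -3.12 on MAT female and -2.02, -2.04, -2.04 and -1.92 on AGED female arrays. The AGED males lay below the MAT males and the AGED females above the MAT females, with no overlap in either sex. The changes were -0.37 ± 0.13 (SE), adjusted p = 0.174 in males and 0.96 ± 0.13 (SE), adjusted p = 0.0109 in females, and their difference -1.33 ± 0.18 (SE), adjusted p = 0.0125. This difference kept its call in 27 of 28 alternatives, that of A_30_P01017976 in 17 of 29 and that of A_30_P01028362 in 13 of 28. Without AGED male replicate 1, 58 interval probes were called for the difference.

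More interval probes were called between males and females at AGED than at MAT age, but fewer had male and female arrays without overlap. The difference between the ages was not itself tested, and sex cannot be told apart from slide. At MAT age 4 interval probes were higher in males (0.0482%, beside 0.0893% of all probes) and 2 lower (0.0241%, beside 0.0676%). At AGED age 142 were higher (1.71%, beside 1.2%) and 109 lower (1.31%, beside 1.88%). Before adjustment (limma, p under 0.05, 2-fold or more) the counts were 71 and 54 at MAT age and 253 and 188 at AGED age. Over all 36972 probes they were 299 and 557, and 753 and 1128. The 4 male arrays lay above the 4 female arrays for 936 interval probes (11.3%) at MAT age and 791 (9.53%) at AGED age. Over all 36972 probes these counts were 4863 (13.2%) and 3105 (8.4%). The male arrays lay below the female arrays for 272 interval probes at MAT age and 249 at AGED age, beside 1639 and 1768 of all probes. The lower count of male arrays above female arrays at AGED age was thus not particular to interval probes. The probes called higher at AGED age had 117 names on 19 chromosomes and those called lower 88 names on 19. On chromosome X, 12 were called higher and 4 lower. On chromosome 10, all 19 called were lower in males, and on chromosome 11 all 10 were higher. Many of these probes lay close together, and some shared a name. Runs within 1 Mb held 7, 4 and 3 of the called probes on chromosome 10, and 3 and 3 on chromosome 11. On chromosome X runs held 4 and 4 of those called higher. Over all 330 kept interval probes of chromosome 10 the median difference was 0.10. The median difference at AGED age was 0.17 over the interval probes and 0.05 over the others. Of the 142, 43 had no AGED female array well above background, and of the 109, 41 were not measured above it on any AGED male array.

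At MAT age, A_30_P01025217 of chr7:140011140-140018815_F had levels of -3.57, -4.18, -6.64 and -2.9 in males and -8.71, -7.39, -8.55 and -8.46 in females, where no array had it well above background. It was at least 4.37-fold higher in males (adjusted p = 0.0325), and MAT male replicate 3 was far below the other MAT male arrays. The call held in 13 of 22 alternatives and was lost without any of 7 single arrays. A_30_P01020751 of chr2:136327645-136341251_F had -7.29, -8.06, -6.48 and -5.3 in males and -1.62, -3.96, -3.51 and -4.31 in females, a difference of -3.43 ± 0.62 (SE), adjusted p = 0.0364, with 1 MAT male array well above background, and the call held in 12 of 24 alternatives. A_30_P01021225 of chr9:43738583-43757007_R was lower in males at both ages, with -8.36, -8.2, -8.02 and -7.08 in MAT males and -5.07, -4.91, -5.47 and -5.3 in MAT females. No male array was well above background, and it was at least 1.69-fold lower at MAT age (adjusted p = 0.0147) and at least 1.99-fold at AGED age (adjusted p = 0.00144).

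At AGED age, A_30_P01026811 of chr1:183980308-183981141_F had -5.36, -4.86, -2.7 and -3.96 in males and -7.0, -7.58, -6.59 and -7.02 in females, where it was not well above background, and was at least 2.86-fold higher in males (adjusted p = 0.00712). A_30_P01030565 of chr16:13754656-13756647_F had -2.5, -3.49, -1.72 and -7.8 in males and -7.4, -6.37, -7.86 and -7.23 in females, and was at least 3.63-fold higher in males (adjusted p = 0.0348). Its AGED male replicate 4 lay among the female arrays, and the call held in 15 of 22 alternatives.

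By chromosome, 9 of the 24 rises in males and 9 of the 13 rises in females were on chromosome 1, which held 614 of the kept probes. No interval probe of chromosome X was called for age in either sex, of 297 kept. The same held for chromosomes 6, 9 and 19, of 512, 315 and 189 kept. Shares over all probes tested were 0.246% higher and 0.557% lower in males, and 0.154% and 0.00811% in females. The median male change of a chromosome ran from -0.06 to 0.07, and the median female change was below 0 on all 20 chromosomes, from -0.14 to -0.02. By suffix, 17 R and 7 F probes rose in males, of 4327 and 3974 kept, and 11 R and 2 F in females. The chromosome 1 stretch above held 6 of the male R rises and 9 of the female rises, all R but A_30_P01021827. The name chr3:57416618-57429679_R held 3 more of the male R rises. Probes of 1 name or of overlapping names are not independent, so these counts rest on few loci. The median change was -0.01 for F and 0.01 for R probes in males, and -0.08 and -0.07 in females.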

How the data were processed

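The total RNA of each of 16 bladders was labelled and put on its own 1-colour Agilent array. The authors extracted the scans with Agilent Feature Extraction (version 9.1 per the labels' processing notes, 10.7.3.1 in the file headers) and deposited an intensity per spot, background-subtracted and not normalized between arrays, with flags. They also deposited a log2 table, whose scaling is not stated and whose centring on each probe's median was read from its values, which was used as an alternative (column medians -0.125 to 0.290, lowest correlation with the scanner values 0.9999 after the same centring). The build mm9 is from the file headers.

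Here, log2 processed signals were taken, and the 75th percentile of the non-control spots of each array was subtracted. Left out were controls and outlier-flagged spots (32 values of the kept interval probes). No spot was saturated. Probes needed 4 of 16 arrays well above background. Group means were fitted in limma 3.58.1 (R 4.3.3) over the 16 arrays at once, with 12 residual degrees of freedom, and tested with Benjamini-Hochberg adjustment over 36972 probes. The procedure was tested on simulated data. Where no array of the dimmer group was well above background, each of its arrays was raised to the dimmest signal still called well above background there, and the fold is a lower bound. P-values measure the spread between bladders within a group, and their precision is limited by having 4 arrays per group.

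Members, gene lists and the rule for named probes were chosen with earlier results of these data known. Named were, per sex and direction, the 8 largest called changes whose groups did not overlap and whose brighter group was well above background on all 4 arrays, probes called in both sexes, the smallest adjusted p-values of the sex difference, the 5 highest mean levels, runs of 3 or more called probes within 1 Mb, the 3 largest sex differences at each age, and the probes at the detection threshold. Sex-linked genes and the RefSeq lncRNA class served as comparison lists. Replicate numbers did not pair the arrays. Alternatives covered the scaling, background correction, filters, the authors' table, a floor, 1 probe per name, other tests, weights, a replicate block, each sex alone and leaving out each array. Directions of age changes follow the ages in the labels, and they were set beside the direction that the study lists for named genes after the results were seen.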

Additional observations from a re-analysis of the deposited data

Results flagged for a closer look

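Arrays standing apart within a group were looked for with Dixon's ratio, the gap of the extreme array over the range of its group of 4, against a critical value of 0.83, which chance passes in about 1 in 20 groups. It marked 1 of 16 groups (6.25%) for the array measures and 14 of 180 (7.78%) for the named probes, near that share. The 75th percentile of AGED male replicate 1 was low (0.873).

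Among the chromosome 1 probes, MAT female replicate 4 was low for A_30_P01021827 (0.889), and AGED female replicate 4 was high for A_30_P01022910 (0.859) and A_30_P01030738 (0.871). AGED female replicate 4 was also low for A_30_P01033125 of chr8:67550064-67560987_R (0.872) and high for A_30_P01019306 of chr11:119254413-119296960_F (0.842). AGED female replicate 3 was high for A_30_P01025217 of chr7:140011140-140018815_F (0.845) and A_30_P01031644 of chr13:28947034-28949166_R (0.911), and low for A_30_P01023356 of chr16:11024315-11055740_F (0.882). For the last probe MAT male replicate 2 was high (0.957).

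MAT male replicate 2 was low for A_30_P01027305 of chr7:69075022-69127242_R (0.864), and MAT male replicate 1 high for A_30_P01021541 of chr15:61984389-62102500_R (0.94). MAT female replicate 3 was high for A_30_P01032124 of chr7:66562376-66579519_R (0.846), and MAT female replicate 4 for A_30_P01019447 of chr17:15226181-15250333_R (0.948). AGED male replicate 3 was low for A_30_P01021323 of chr4:145000941-145148666_F (0.846).

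The age change differed between the sexes, by the interaction in limma, for A_30_P01028362 of chr3:57416618-57429679_R (1.43, males minus females, log2), A_30_P01017976 of chr17:22422837-22451777_R (-1.36) and A_30_P01019306 of chr11:119254413-119296960_F (-1.33).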

How the results depend on the processing

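The counts of called interval probes as reported were 24 rises and 23 falls in males, 13 rises and 0 falls in females, 5 in both sexes, 3 for the difference between the sexes, 251 for sex at AGED age and 6 at MAT age. In that order of comparisons, and printing only counts that moved by over 1.5 times, 1 probe per name gave 12 and 7 in males, 7 in females, 2 in both and 1 for the difference. Median scaling gave 39 lower in males and 5 for the difference, quantile normalization 49 and 5, and normexp 11 higher and 58 lower in males, 3 in both, 49 for the difference, 129 at AGED and 0 at MAT age. No filter on dim probes gave 250 higher in males, 7 higher in females, 1 for the difference, 616 at AGED and 12 at MAT age, and a floor on low signals 15 lower in males, 20 higher in females, 5 for the difference and 14 at MAT age. Array weights gave 35 higher and 14 lower in females and 47 for the difference. A variance trend gave 8 for the difference, and either stricter filter on dim probes 5. With no fold limit, 47 were higher and 48 lower in males. With each sex alone, males had 0 and 0, females 7 lower, and both sexes 0. With limma at an unadjusted p, counts were 104 and 132 in males, 84 and 63 in females, 17 in both and 787 for the difference. The methods' t-test gave 55 and 73, 67 and 44, and 11 unadjusted, and 0 in males, 0 higher in females and 0 in both once adjusted. Normexp called 5 of the 24 rises and 3 of the 23 falls in males and 8 of the 13 rises in females. The cause of these moves was not tested.

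Leaving out 1 array at a time gave 15 to 32 rises and 13 to 61 falls in males, 1 to 29 rises and 0 to 7 falls in females, 0 to 8 in both sexes, 1 to 58 for the difference, 185 to 358 at AGED age and 3 to 16 at MAT age. The extremes were 61 falls without AGED male replicate 2, 58 differences, 358 at AGED and 16 at MAT age without AGED male replicate 1, and 0 in both sexes without MAT female replicate 4. Of single probes, 1 reversed, as A_30_P01027305 of chr7:69075022-69127242_R, males against females at AGED age, was at 0.11 with normexp.

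With the replicate number as a block, 7 rose and 4 fell in males (108 and 126 unadjusted), 0 rose in females (87 and 64 unadjusted), and 0 were called in both or for the difference. Deviations of same-numbered arrays had correlations from -0.11 to 0.07 in males and from -0.14 to 0.06 in females, so the numbers do not pair them. A slide block was not run, as each slide held 1 sex.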
